A study of Rattus norvegicus with 8 samples.

Results

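Long noncoding RNA genes were described in the Achilles tendon of the rat, in 8 RNA-seq libraries. Of these, 4 came from rats killed as soon as a treadmill run of 1 h ended, a group named 0 h p.r. (post-run), and 4 from naïve controls (NC) without a run. The rats were wild-type Sprague-Dawley males aged 8 to 10 weeks, each library came from the tendon of the right leg, and the replicate numbers were those of the sample titles. A gene belonged to the set if its row in the deposited table had the gene type lincRNA (a long RNA between coding genes), antisense (a transcript of the strand opposite a coding gene) or processed transcript (a spliced transcript without an annotated reading frame). This gave 369 of 15590 rows, namely 282 lincRNA, 33 antisense and 54 processed transcript rows. The members described in full were the 247 rows that reached 0.5 FPKM in 4 or more of the 8 libraries (175 lincRNA, 31 antisense and 41 processed transcript rows). FPKM is fragments per kilobase of gene, on the deposited scale between libraries. That scale did not follow the reads in the listed genes alone. A read counted 1.79 times as much in NC replicate 2 as in NC replicate 1, at 11353941 and 16490386 such reads. In the study's methods the NC rats were killed together with a later post-run group, so running and the hour of sampling cannot be told apart. The labels do not say more on how the replicates were drawn, so the p-values measure the spread between these libraries.

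Long noncoding RNAs are transcribed and often spliced like messenger RNAs but carry no long reading frame. Some act in the nucleus on chromatin or as the scaffold of nuclear bodies, some act on the gene next to them, and many have no known function. They are known for low levels and for expression in few cell types. Capture of polyadenylated RNA, as used here, keeps those that end in a poly(A) tail.

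The names were checked against RefSeq first. Of the 247 members, 206 carried only a clone-based symbol (such as AC119007.3). RefSeq held 33 of the 247 under their symbol or identifier, and listed 15 of these as lncRNA and 18 as protein-coding. Of the 41 processed transcript members, 16 shared their symbol with a coding gene of RefSeq, among them Itgb5 (an integrin subunit), Cd93 (a receptor of endothelial cells), Smg1 (a kinase of nonsense-mediated decay) and Taf1 (a subunit of the general transcription factor TFIID). For the processed transcript class the label therefore went against RefSeq in 16 rows, and reads in those rows cannot be taken as reads of a noncoding RNA. The other 2 of the 18 were the lincRNA rows Rfwd3 and Ly6l.

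The members were low, and lincRNA members were the lowest. The median of the mean FPKM over the 8 libraries was 2.01 over all members, against 8.73 over the 13055 protein-coding genes that passed the same filter. By type the median was 1.62 FPKM for lincRNA, 6.79 for antisense and 3.88 for processed transcript members. The median length of the exons was 816 bases for lincRNA and 650 bases for antisense members, against 2319 bases for coding genes. Low level and short length together left few reads. The median member had 37.5 reads per library and the median coding gene 318, and 56 members (22.7%) had a median under 10 reads, against 1.52% of the coding genes.

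Few reads went with a wide spread between libraries of a group. The within-group SD of log2(FPKM + 0.5) had a median of 0.397 over the members and 0.256 over the coding genes. The difference was also present at like level. Among genes with a mean of 1 to 2 FPKM the median SD was 0.405 for 64 members and 0.327 for 1171 coding genes, with 17.8 and 49.5 reads per library. Among genes with a mean of 5 to 20 FPKM it was 0.388 for 46 members and 0.231 for 5115 coding genes, with 101 and 365.5 reads. The part of read number in this difference was not tested.

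**Figure D1:**
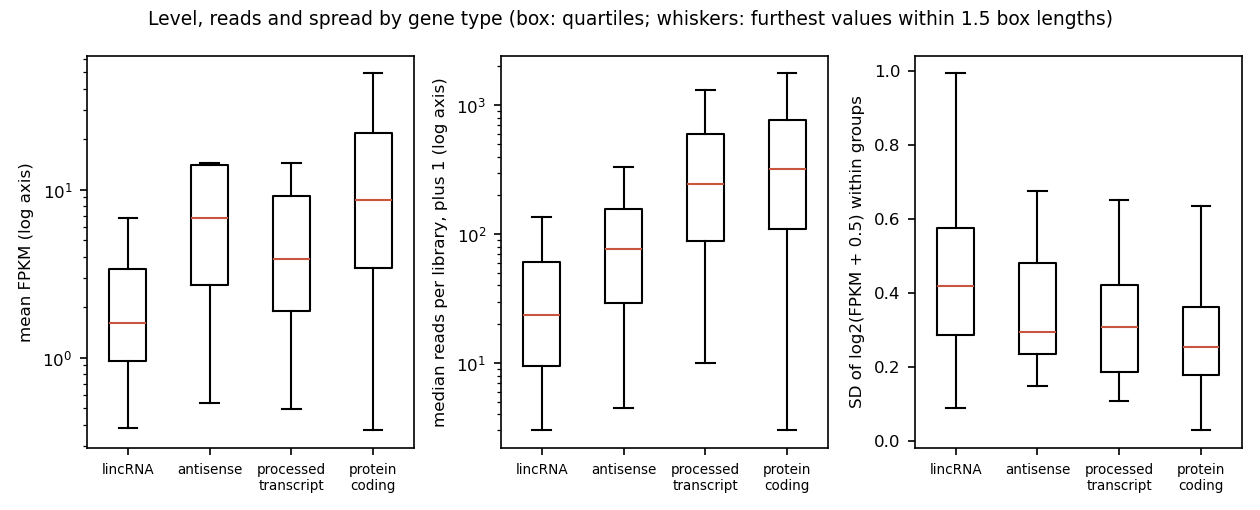
Mean FPKM (log axis), median reads per library plus 1 (log axis) and within-group SD of log2(FPKM + 0.5) for the genes that passed the filter, by gene type; boxes span the quartiles and the line is the median. The lincRNA box lies lowest in level (median 1.62 FPKM) and highest in SD (median 0.421), and the protein-coding box is highest in level (median 8.73 FPKM).

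A small part of each library fell on the members. They took 0.353% to 0.559% of the summed FPKM, with 0.353% in NC replicate 3 and 0.559% in NC replicate 4, so the NC libraries covered the whole range. This range came mostly from 1 gene, AC134224.3. It had 195 FPKM of the 2051 FPKM of all members in NC replicate 3, and 1236 of 3096 in NC replicate 4. Between 213 and 233 of the 247 members reached 0.5 FPKM in a library. The libraries held 11353941 (NC replicate 2) to 17903265 (0 h p.r. replicate 4) reads in the listed genes. The tissue label was checked against markers, and all 10 tendon fibroblast markers on the list had rows. Their summed FPKM was 10032, 12060, 13353 and 7629 in NC and 11808, 14320, 10803 and 22391 at 0 h p.r. Markers of other tissues also moved. All 12 adipocyte markers were lower at 0 h p.r., 7 of them past both thresholds, with sums of 3297 to 6638 in NC and 1139 to 2416 at 0 h p.r. The sum of 9 fast-muscle markers ran from 1520 to 6258 in NC and from 872 to 30984 at 0 h p.r., and was above the tendon fibroblast sum in 0 h p.r. replicates 1 and 3. The sum of 8 slow-muscle markers was 1004 to 2094 in NC and 168 to 1140 at 0 h p.r., and 8 of 8 had lower values, none past both thresholds. Bone markers summed to 306 to 470 in NC and 567 to 2183 at 0 h p.r. Of these sums, Spp1 alone gave 281 to 455 FPKM in NC and 489 to 1983 at 0 h p.r. All 8 tested bone markers had higher values at 0 h p.r., 1 past the adjusted p and 0 past both thresholds. In whole tendon, fewer cells of a type and less RNA per cell cannot be told apart. The part of these tissues in the results on the members was not tested, and marker values given beside members below are a description.

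Running was then compared with rest. In limma on log2(FPKM + 0.5), with Benjamini-Hochberg adjustment over all 13863 genes tested, 8 of the 247 members (3.24%) passed both an adjusted p under 0.05 and a fold of 2, where 2.7% of all tested genes did. Of the 8, 5 were higher at 0 h p.r. (1.8% of all genes) and 3 were lower (0.894% of all genes). One of the 3, AABR07038983.1, passed the filter on low values only through its NC libraries, so its groups had to differ. Without the genes of this kind 7 of 244 members (2.87%) and 2.58% of all genes were called. Of these 7, 2 were lower, or 0.820% of the 244, against 0.832% of all genes. At any fold 11 members passed the adjusted p (4.45%), against 5.72% of all genes. Of these 11, 8 were higher (3.49% of all genes) and 3 lower (2.23%). All 11 were lincRNA genes, and 0 of 31 antisense and 0 of 41 processed transcript members passed, though 6 and 5 of these had an unadjusted p under 0.05. That p was under 0.05 in 59 of the 247 members (23.9%) and in 22.6% of all genes. Over all members these shares lay near the background under both rules. Within lincRNA members they were 4.57% for both thresholds, beside 2.7% of all genes, and 6.29% for the adjusted p, beside 5.72%. The lincRNA shares still include AABR07038983.1 and were not tested. By level, the calls were 1 of 59 members under 1 FPKM (1.69%, coding genes 1.59%), 5 of 64 at 1 to 2 FPKM (7.81%, coding genes 2.13%), 0 of 60 at 2 to 5 FPKM (coding genes 2.01%), 2 of 46 at 5 to 20 FPKM (4.35%, coding genes 2.50%) and 0 of 18 above (coding genes 3.99%). These shares by level were not tested. Leaving out 1 library at a time moved the 8 to between 2 (without 0 h p.r. replicate 3) and 12 (without 0 h p.r. replicate 4). The split by direction moved as well, to 7 higher and 1 lower with quantile scaling and to 4 and 1 with the replicate number as a block. At any fold it was 13 higher and 17 lower with array weights, and 9 and 10 without 0 h p.r. replicate 4. The median log2 change over the members was -0.01 and over all genes -0.00, and 122 of 247 members lay above 0. By type the median was -0.05 for lincRNA, -0.00 for antisense and 0.07 for processed transcript members.

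The values of the libraries were also compared directly, without a test. In 36 members (14.6%) the 4 libraries of one group all lay above the 4 of the other, against 15.6% of all genes. These were 15 with higher values at 0 h p.r. (6.07%, background 8.15%) and 21 with lower values (8.50%, background 7.47%). Among the 21, 3 members passed the filter only through their NC libraries and so could not overlap. Without such genes, 15 of 244 members were higher (6.15%, background 8.07%) and 18 lower (7.38%, background 7.29%). A fold of 2 at any p was seen in 21 members (8.50%), 14 upwards and 7 downwards, where 4.91% of all genes had one. The larger share past a fold of 2 stood beside the larger within-group SD of the members.

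**Figure D2:**
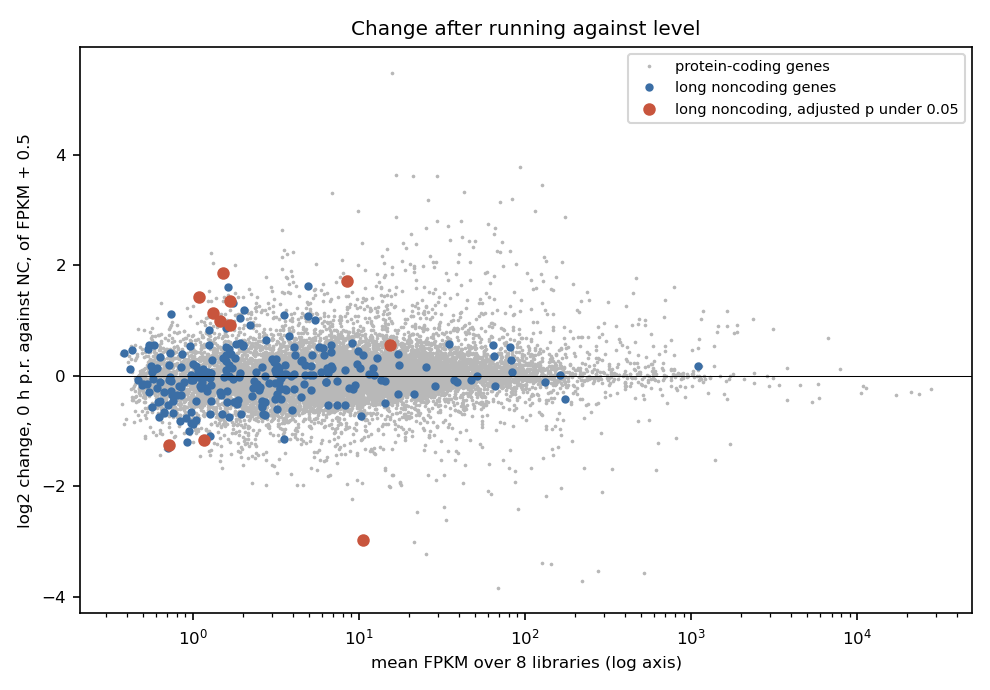
Log2 change of FPKM + 0.5 (0 h p.r. against NC) against mean FPKM over 8 libraries (log axis), for coding genes (grey), members (blue) and the 11 members with an adjusted p under 0.05 (red). The members sit to the left, at low FPKM, and scatter on both sides of 0, with a median change of -0.01.

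The member with the smallest adjusted p was AABR07004868.2 (ENSRNOG00000057308), a lincRNA of 896 bases listed between Lrrc32, which presents latent TGF-beta on the cell surface, and Emsy, a partner of BRCA2. Its FPKM was 4.33, 2.14, 4.49 and 3.90 in NC and 17.5, 12.9, 14.3 and 8.46 at 0 h p.r. Every 0 h p.r. library lay above every NC library, and 0 h p.r. replicate 4 was the lowest of its group. The mean rose from 3.71 ± 1.08 (SD, n = 4) to 13.3 ± 3.73 (SD, n = 4), a log2 change of 1.71 (SE 0.26, limma adjusted p = 0.00899). The 19 to 69 reads of the NC libraries and 137 to 210 of the 0 h p.r. libraries made it the best covered of the called members that rose. The adjusted p stayed under 0.05 in all 8 fits that left out 1 library, at most 0.0339.

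Lrrc32 itself rose from 33.6 ± 6.02 to 74.9 ± 16.03 FPKM (SD, n = 4 each), a log2 change of 1.13 (limma adjusted p = 0.0131). That p was above 0.05, at 0.0508, in 1 of the 8 fits without 1 library. Within 0 h p.r. the order of libraries for Lrrc32 (90.7, 77.3, 79.0 and 52.6 FPKM) was that of AABR07004868.2. The summed fast-muscle markers also had this order, as did 10.9% of all tested genes. The FPKM of the lincRNA was 0.0786 to 0.192 times that of Lrrc32, and these ratios were highest in the 0 h p.r. libraries. Emsy, on the other side, had a log2 change of 0.27 (limma adjusted p = 0.339).

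The next members were the pair AC119007.3 (ENSRNOG00000053143, 306 bases) and AC119007.5 (ENSRNOG00000055573, 413 bases), both listed between Grasp, a scaffold protein of membrane receptors, and Nr4a1, an orphan nuclear receptor and immediate-early gene. AC119007.3 had 0.184, 0.660, 0 and 0.878 FPKM in NC and 2.21, 2.34, 3.06 and 2.89 at 0 h p.r. AC119007.5 had 0.272, 0.978, 0.660 and 0.976 FPKM in NC and 1.64, 3.07, 3.02 and 2.68 at 0 h p.r. In both genes the groups were fully apart. The log2 change was 1.85 (SE 0.31, limma adjusted p = 0.0134) for AC119007.3 and 1.36 (SE 0.26, adjusted p = 0.0220) for AC119007.5. Reads were few, at 0 to 4 in NC and 9 to 16 at 0 h p.r. for AC119007.3, and 2 to 6 against 9 to 23 for AC119007.5. AC119007.3 kept an adjusted p under 0.05 in each of the 8 fits without 1 library, with 0.0484 as the highest value. AC119007.5 lost it without NC replicate 3 (0.0580), 0 h p.r. replicate 2 (0.0809) or 0 h p.r. replicate 3 (0.0697). In voom on the recovered reads, with library sizes from the listed genes, the adjusted p was 0.0509 for AC119007.3 and 0.0799 for AC119007.5. With library sizes from the FPKM scale it was 0.0353 and 0.0446.

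Nr4a1 rose from 21.9 ± 10.8 to 231 ± 75.9 FPKM (SD, n = 4 each), a log2 change of 3.45 (limma adjusted p = 0.00205), and Grasp had 14.9 ± 0.721 and 20.4 ± 2.57 FPKM (adjusted p = 0.0620). Nr4a1 was highest in 0 h p.r. replicate 4 (325 FPKM), while AC119007.3 was highest in replicate 3 and AC119007.5 in replicate 2. The strand used in counting is not stated in the sources used here, so reads of a neighbour that run into a member, or of a transcript on the other strand, cannot be told apart from its own.

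AABR07025386.1 (ENSRNOG00000052230), a lincRNA of 1154 bases, was listed between Scrg1, a gene of differentiating cartilage cells, and Hand2, a transcription factor of limb and heart development. Its FPKM was 0.244, 0.350, 0.590 and 0.175 in NC and 1.76, 1.10, 1.35 and 3.17 at 0 h p.r. All 0 h p.r. values were above all NC values, and replicate 4 was the highest. The log2 change was 1.43 (SE 0.28, limma adjusted p = 0.0235). Bone and cartilage marker sums were also highest in 0 h p.r. replicate 4, at 2183 and 1449 FPKM. Of these sums, the bone marker Spp1 alone gave 1983 FPKM and the cartilage marker Prg4 alone 1030. The part of these tissues in the value of AABR07025386.1 was not tested. The adjusted p was 0.0778, 0.0557, 0.0594 and 0.0519 without NC replicate 1, NC replicate 4, 0 h p.r. replicate 1 and 0 h p.r. replicate 3. Scrg1 had 7.33 ± 3.22 and 13.7 ± 8.11 FPKM and Hand2 6.70 ± 0.737 and 8.19 ± 4.49 FPKM (SD, n = 4 each), both with overlapping groups and both highest in 0 h p.r. replicate 4.

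The last of the 5 called members that rose was AABR07060519.1 (ENSRNOG00000059013, 2240 bases), listed between Ezh2, the methyltransferase of polycomb repressive complex 2, and Pdia4, a chaperone of the endoplasmic reticulum. Its FPKM was 0.452, 0.270, 1.19 and 0.720 in NC and 2.75, 1.33, 1.98 and 1.83 at 0 h p.r. The groups did not overlap, though 1.19 in NC replicate 3 and 1.33 in 0 h p.r. replicate 2 lay close. The log2 change was 1.13 (SE 0.27, limma adjusted p = 0.0474). The call depended on the libraries, since 7 of the 8 fits without 1 library gave an adjusted p of 0.0591 to 0.130, the exception being the fit without NC replicate 3. Neither neighbour passed the test, Ezh2 with a log2 change of 0.12 and Pdia4 with -0.28 (limma adjusted p = 0.758 and 0.296).

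A further 3 members passed the adjusted p below a fold of 2, all of them higher at 0 h p.r. with groups apart. AABR07015015.1 (412 bases, between the transcription factor gene Klf3 and Tbc1d1, a regulator of glucose transport) had 0.683, 1.23, 1.32 and 0.815 FPKM in NC and 2.19, 2.54, 2.46 and 2.15 at 0 h p.r. AABR07050283.2 (798 bases, between Arhgef10l and Rcc2) had 1.13, 0.886, 0.854 and 0.421 FPKM in NC and 1.98, 2.00, 2.74 and 1.67 at 0 h p.r. AC134224.2 (709 bases, beside Frmd8) was better covered and had 11.4, 14.2, 10.6 and 12.8 FPKM in NC and 16.4, 19.4, 17.1 and 20.5 at 0 h p.r. The log2 changes were 0.93, 0.99 and 0.56, with limma adjusted p of 0.0231, 0.0337 and 0.0393. Leaving out 1 library took the adjusted p to 0.05 or above in 5, 7 and 7 of the 8 fits. AABR07015015.1 kept it without NC replicate 2, NC replicate 3 or 0 h p.r. replicate 4, AABR07050283.2 only without 0 h p.r. replicate 4, and AC134224.2 only without NC replicate 2.

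The 3 members that fell were rarer or more variable. AABR07010868.1 (ENSRNOG00000052016, 497 bases) was listed between Mme, the surface peptidase neprilysin, and RGD1565059. Its FPKM was 12.9, 33.7, 9.46 and 17.3 in NC and 6.51, 2.88, 0 and 1.34 at 0 h p.r. This was the largest change of any member, from 18.3 ± 10.7 to 2.68 ± 2.81 (SD, n = 4 each), a log2 change of -2.97 (SE 0.73, limma adjusted p = 0.0491). Its groups were apart, with 69 to 166 reads in NC and 0 to 43 at 0 h p.r. Within 0 h p.r. its order of libraries, highest in replicate 1 and lowest in replicate 3, was that of the slow-muscle marker sum (1140, 430, 168 and 248 FPKM). Within NC it was not, as the slow-muscle sum was lowest (1004 FPKM) in NC replicate 2, where AABR07010868.1 was highest. The adjusted p was at least 0.0673 in 7 of the 8 fits without 1 library, all but the fit without 0 h p.r. replicate 1. It was also above 0.05, at 0.0509 to 0.0924, in 6 of 11 other settings, among them a pseudocount of 0.1, no filter, quantile scaling, a robust prior and voom. The log2 change itself moved to -2.26 without 0 h p.r. replicate 3 and to -3.66 with a pseudocount of 0.1.

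AABR07038983.1 (ENSRNOG00000051216, 728 bases) was listed between Msn, which encodes moesin, a linker of membrane and actin, and Vsig4, a complement receptor of macrophages. It had 0.927, 2.08, 1.31 and 0.646 FPKM in NC, from 7 to 15 reads, and 0.207, 0.227, 0.214 and 0.152 at 0 h p.r., from 2 to 3 reads. No 0 h p.r. library exceeded a floor set at 3 reads per library, against which the gene was at least 4.57-fold lower. AC136867.2 (ENSRNOG00000055554, 254 bases), between Adgrd1 and Ran, had 1.55, 1.99, 2.68 and 1.06 FPKM in NC (4 to 10 reads) and 0.888, 0.434, 0.307 and 0.436 at 0 h p.r. (1 to 3 reads). Against the same floor it was at least 2.34-fold lower. The groups of both genes were apart, with limma adjusted p of 0.0256 and 0.0361. The filter was passed only through NC by AABR07038983.1, AABR07014855.1 and AC128986.1. Both calls were lost in 5 of the 8 fits without 1 library, with adjusted p up to 0.0790 and 0.108. Those fits left out NC replicates 1 and 3 and 0 h p.r. replicates 1, 2 and 3 for AABR07038983.1, and NC replicates 1, 2 and 3 and 0 h p.r. replicates 2 and 3 for AC136867.2.

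**Figure D3:**
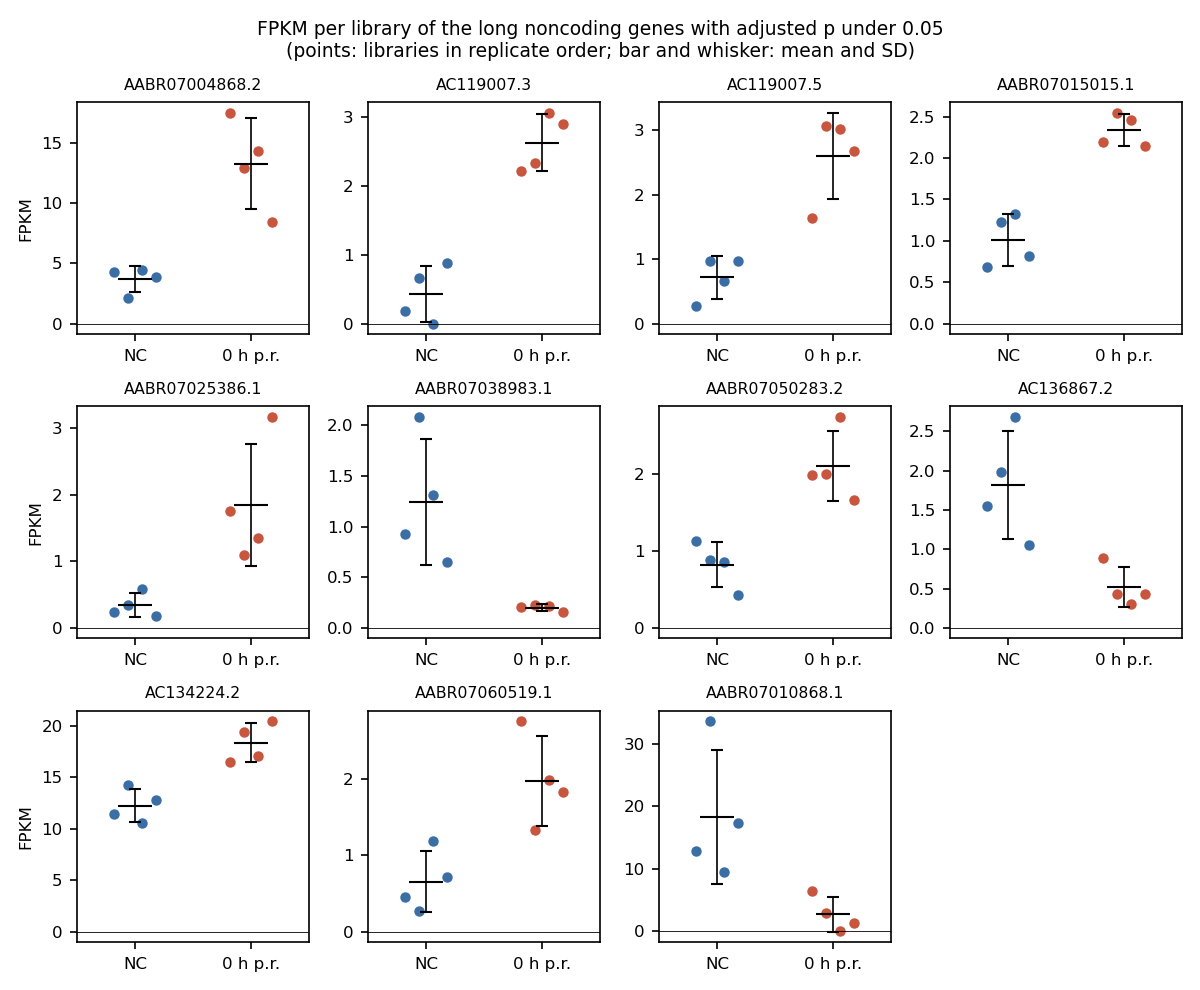
FPKM in each library of the 11 members with an adjusted p under 0.05, in order of adjusted p; points are libraries in replicate order, bars and whiskers are the mean and SD of 4 libraries. In every panel the NC and 0 h p.r. points do not overlap, and AABR07004868.2, AC134224.2 and AABR07010868.1 are the only panels that reach 4 FPKM.

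The coding genes beside the members were examined because some long noncoding RNAs act on their neighbours. The table gave no positions but followed genome order, as 98.4% of successive rows matched to RefSeq lay on the same chromosome and 94.7% of these ascended. A neighbour is here the nearest coding row above or below, and genes that are not listed may lie between. Of the 247 members, 15 stood beside a coding gene that passed both thresholds, and 3 of the 15 passed as well (AABR07004868.2, AC119007.3 and AC119007.5), where 2.7% of all genes did. The 3 members lay at 2 loci, as the last 2 share the neighbour Nr4a1. Of 625 coding genes beside such a gene, 36 (5.76%) passed. The other 5 of the 8 called members did not have such a neighbour. Below a fold of 2, RGD1565059 beside AABR07010868.1 was also lower at 0 h p.r. with groups apart, from 2.72 ± 0.352 to 1.37 ± 0.325 FPKM (SD, n = 4 each; log2 change -0.80, limma adjusted p = 0.0327), and 7 of 8 fits without 1 library lost this. Rcc2 beside AABR07050283.2 was higher, from 11.1 ± 1.595 to 17.9 ± 1.03 FPKM (log2 change 0.68, adjusted p = 0.0200), and 3 of 8 such fits lost it. These 15 were chosen by the values of their neighbours, so their own counts are a description.

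The 12 that did not pass had values on both sides of 0. AC111804.2 (478 bases), beside the immediate-early transcription factor gene Egr3, had 0.471, 1.69, 3.42 and 3.23 FPKM in NC and 5.98, 11.99, 2.78 and 10.2 at 0 h p.r. Its groups overlapped through 0 h p.r. replicate 3, which was also the lowest of its group for Egr3 (7.44, 13.6, 5.70 and 10.2 FPKM), and the log2 change was 1.63 (limma adjusted p = 0.108). The call of Egr3 itself was lost in 6 of the 8 fits without 1 library. AABR07047256.1 (359 bases), beside Gem, which encodes a small GTPase that inhibits calcium channels, had 0.908 ± 0.366 FPKM in NC and 3.14 ± 2.38 at 0 h p.r. (SD, n = 4 each; adjusted p = 0.135). Gem had a log2 change of 2.03, and both genes were highest in 0 h p.r. replicate 4.

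Of the members beside genes with large rises, several had small changes. LOC102549726 (1522 bases), beside the inducible heat shock gene Hspa1b, had 5.84, 11.1, 4.61 and 5.43 FPKM in NC and 7.61, 5.69, 5.69 and 4.84 at 0 h p.r., a log2 change of -0.11 (SE 0.25), while Hspa1b changed by 3.78 on the log2 scale. AABR07058158.1 (3893 bases), beside the proto-oncogene Myc, had 1.08, 0.934, 0.997 and 1.14 FPKM in NC and 1.04, 1.03, 0.862 and 0.882 at 0 h p.r., a log2 change of -0.08 (SE 0.14), while Myc changed by 1.87. AABR07016572.1, beside the neutral amino acid transporter gene Slc1a4, had a log2 change of -0.13 (SE 0.24), with the neighbour at 1.98. The change of AABR07044570.2, beside the kinase gene Sik1 (2.67), was 0.72 (SE 0.85) and too variable to be called small. Its libraries ran from 0.382 to 5.51 FPKM in NC and from 0.487 to 10.5 at 0 h p.r. The reads behind LOC102549726 (103 to 167 per library) and AABR07058158.1 (36 to 75) were more than those of the 2 members beside Nr4a1.

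Of the 15 members, 6 had a log2 change of the opposite sign to the called neighbour, and in 1 of the 6 the groups did not overlap (16.7%, against 15.6% of all genes). This member, AABR07030086.2 (3005 bases), beside Wsb1, a substrate adaptor of a ubiquitin ligase, had 1.35, 1.75, 0.861 and 1.297 FPKM in NC and 0.676, 0.734, 0.441 and 0.682 at 0 h p.r. Its groups were apart and lower at 0 h p.r., with a log2 change of -0.66 (SE 0.19, limma adjusted p = 0.0815), while Wsb1 rose from 16.6 ± 2.21 to 40.8 ± 6.04 FPKM (SD, n = 4 each). AABR07028749.2, beside the gene Skida1, which was lower at 0 h p.r., was itself lower without overlap, with 3.47 to 4.70 FPKM in NC and 2.41 to 3.28 at 0 h p.r. (log2 change -0.42, limma adjusted p = 0.132). The call of Skida1 (log2 change -1.04, limma adjusted p = 0.0484) was lost in 7 of the 8 fits without 1 library. Across genes, which are not independent and share their libraries, Pearson's r between the log2 change of a member and that of its neighbour was 0.23 for the row above (n = 235) and 0.27 for the row below (n = 223). By type, for the rows above and below, it was 0.25 and 0.30 for lincRNA, 0.54 and 0.06 for antisense and -0.16 and 0.01 for processed transcript members. Between coding genes next to each other it was 0.12 (n = 11707). Without the 11 members with an adjusted p under 0.05 the pooled values were 0.21 and 0.17.

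**Figure D4:**
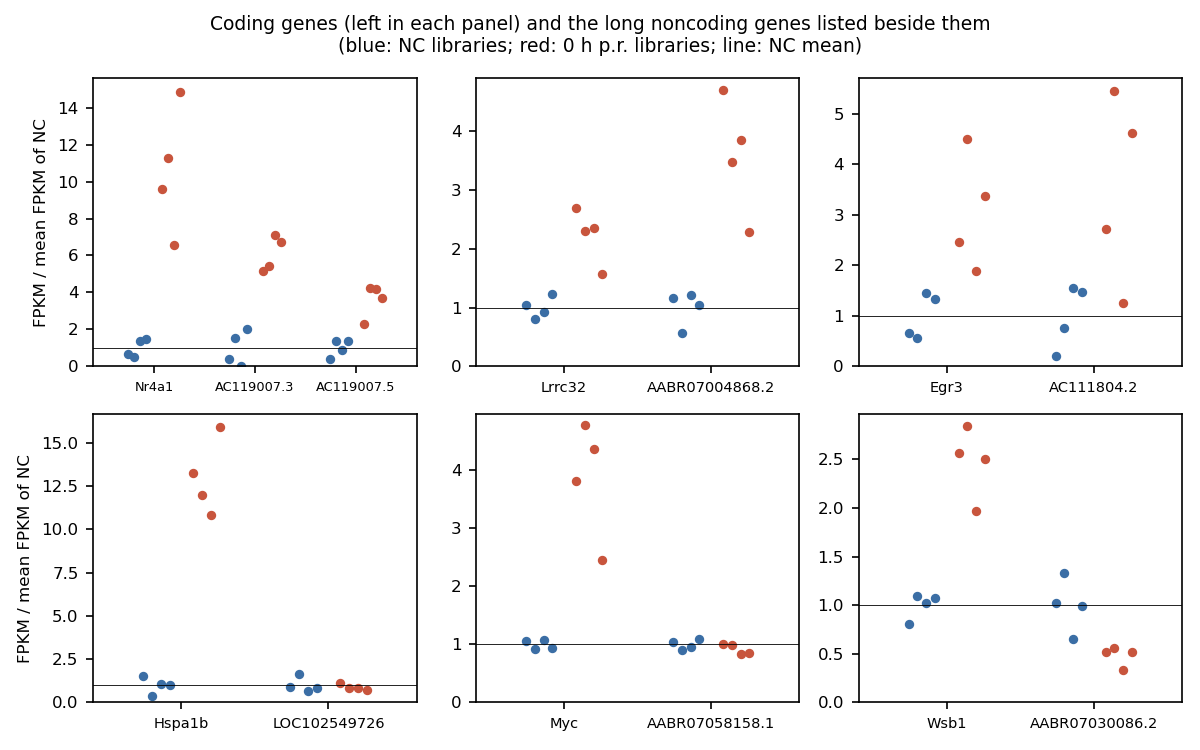
FPKM of each library divided by the NC mean of the gene, for 6 coding genes past both thresholds (left in each panel) and the members listed beside them; blue points are NC and red points 0 h p.r. libraries. The members beside Nr4a1 and Lrrc32 lie above their NC values at 0 h p.r., those beside Hspa1b and Myc overlap their NC values, and the member beside Wsb1 lies below its NC values.

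The antisense members were the better expressed noncoding class and none passed the test. The highest, AABR07072184.3 (361 bases), was listed beside Ramp2, which encodes a receptor partner for adrenomedullin. It had 187, 293, 149.8 and 175 FPKM in NC and 145.8, 134, 140.0 and 159.8 at 0 h p.r., a log2 change of -0.43 (SE 0.20, limma adjusted p = 0.249). Its FPKM was 1.21 to 1.299 times that of Ramp2 in every library, although both genes varied more than 2-fold between libraries (a maximum 2.19 and 2.07 times the minimum). LOC100363531 (516 bases) kept in the same way between 0.438 and 0.502 times the FPKM of Cox7b, a subunit of cytochrome c oxidase, while its own values ran from 58.2 to 131 FPKM. AC108578.1 stood at 5.53 to 6.82 times the FPKM of Psma4, a proteasome subunit, and AABR07055846.2 at 1.43 to 1.81 times that of Ptbp1, a splicing regulator. The 2 antisense rows beside Ramp2 and Cox7b therefore followed the coding row with ratios whose highest value was 1.07 and 1.14 times the lowest. Whether these reads came from the antisense transcript or from the coding transcript cannot be told apart without the counting strand.

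Among the antisense members with the smallest p, AABR07040951.1 (between LOC100361854 and Alg13) had 2.62, 5.41, 3.33 and 2.51 FPKM in NC and 5.96, 9.64, 9.28 and 4.90 at 0 h p.r., with overlap between NC replicate 2 and 0 h p.r. replicate 4. AC120237.2 (between Arl2 and Ppp2r5b) had 1.32, 1.48, 1.40 and 1.28 FPKM in NC and 0.881, 0.888, 0.228 and 0.324 at 0 h p.r., without overlap. Neither passed, with log2 changes of 1.01 and -0.85. These 2 genes were chosen after their values were seen.

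The highest level of any member was that of the lincRNA AC134224.3 (695 bases), which was listed with AC134224.1 and AC134224.2 beside Frmd8, a partner of the sheddase regulator iRhom. It had 955, 2449, 195 and 1236 FPKM in NC and 1185, 887, 825 and 1081 at 0 h p.r. NC replicate 2 was 12.6 times NC replicate 3, while the highest 0 h p.r. library was 1.44 times the lowest, and no change passed the test (log2 change 0.18, SE 0.65, limma adjusted p = 0.914). AC134224.1 did not share this spread. It had 34.6, 27.3, 19.4 and 32.4 FPKM in NC and 36.9, 42.6, 40.3 and 46.9 at 0 h p.r., and its groups did not overlap (log2 change 0.57, SE 0.18, adjusted p = 0.0996). Frmd8 did not pass the test and had overlapping groups, with 17.8 ± 1.63 and 16.4 ± 2.83 FPKM (SD, n = 4 each).

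The processed transcript members with the highest levels were Snx3, Itgb5, AABR07044388.2, AABR07068316.1 and Cd93. Snx3, a sorting nexin of endosomes, had 161 ± 31.9 FPKM in NC and 161 ± 10.9 at 0 h p.r. (SD, n = 4 each). Cd93 had 41.5, 46.7, 50.8 and 67.6 FPKM in NC and 97.1, 79.4, 74.9 and 54.2 at 0 h p.r., with overlap between NC replicate 4 and 0 h p.r. replicate 4 (log2 change 0.55, limma adjusted p = 0.149). Arid5b, a DNA-binding cofactor of a histone demethylase, had 6.99, 4.47, 8.83 and 8.71 FPKM in NC and 12.5, 9.99, 12.8 and 8.84 at 0 h p.r., with groups just apart (log2 change 0.60, adjusted p = 0.146). No member of this class passed the test.

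Of the long noncoding RNAs on the lists by name, 1 was a member. Tug1, which binds chromatin regulators and is broadly expressed, had 4.16, 3.75, 4.46 and 3.81 FPKM in NC and 4.70, 5.08, 4.54 and 5.57 at 0 h p.r. Each 0 h p.r. library lay above each NC library, by little, with a log2 change of 0.27 (SE 0.12, limma adjusted p = 0.242) on 190 to 515 reads. The 11 lncRNAs of imprinted loci, 19 snoRNA hosts and 17 miRNA hosts on the lists had no row under those symbols. Of the list of development and stress, Rpph1 and Sra1 had rows of other gene types. Under a clone-based symbol, AABR07065531.5 (583 bases) was listed beside the imprinted gene Dlk1, a Notch ligand, with 16.2, 1.21, 15.8 and 6.34 FPKM in NC and 14.6, 6.52, 7.23 and 1.61 at 0 h p.r. AC099449.1 was listed beside Igf2, the imprinted growth factor gene, with 0.768 ± 0.168 FPKM in NC and 0.576 ± 0.351 at 0 h p.r. (SD, n = 4 each). Neither gene passed the test.

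Proteins that work with long noncoding RNAs are given by their counts, beside backgrounds of 2.7% for both thresholds and 5.72% for the adjusted p. Of 14 proteins of paraspeckles and nuclear speckles, 0 passed both thresholds or the adjusted p in limma, with 12 of 14 values above 0 and a median log2 change of 0.25. Among them the splicing factor Srsf2 had 71.4 FPKM in NC and 107 at 0 h p.r. (limma adjusted p = 0.0588). Of 10 factors of nonsense-mediated decay, 0 passed either rule (median 0.08). Of 10 proteins of polycomb repressive complex 2, 1 passed the adjusted p, the methyltransferase Ezh1, which fell by 0.59 on the log2 scale (adjusted p = 0.0244). Of 8 tested rows of imprinted coding genes, 2 of them of Gnas, 0 passed either rule (median 0.06).

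Within the groups, some members varied far more than they differed between groups. The 12 members with the widest within-group SD were chosen for it, so their values are a description. AABR07022113.1 (1920 bases, between Prox1, a homeobox gene, and Smyd2) had 0.146, 3.37, 1.42 and 0.665 FPKM in NC and 14.5, 0.832, 6.95 and 0.288 at 0 h p.r., so that its highest 0 h p.r. library was 50.1 times the lowest. The fast-muscle marker sum had the same order of libraries in both groups, with 1520, 6258, 5038 and 2957 FPKM in NC and 30984, 5360, 13907 and 872 at 0 h p.r. AC105485.2 followed the fast-muscle order within 0 h p.r., with 15.2, 3.20, 9.07 and 0.644 FPKM. LOC102552344 did so with 6.32, 0.622, 3.82 and 0.486 FPKM, and AABR07032724.3 with 6.97, 1.65, 2.75 and 0.217 FPKM.

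In all, 7 of the 12 members with the widest spread (58.3%) had the fast-muscle order within 0 h p.r., against 21 of the 247 members (8.50%) and 10.9% of all tested genes. The other 3 of the 7 were LOC102550325, AC133316.1 and AABR07065531.5, the last of which had its lowest NC value in replicate 2, where the muscle sum was highest. The 5 largest changes that did not pass the test were 3 with higher and 2 with lower means at 0 h p.r. LOC102552344 and AABR07032724.3, both of the fast-muscle order, and AC111804.2, which did not have that order, had log2 changes between 1.32 and 1.63 (limma adjusted p = 0.212, 0.277 and 0.108). AABR07014855.1 had 0.522, 0.938, 0.949 and 2.60 FPKM in NC and 0.116, 0, 0.483 and 0.0857 at 0 h p.r., a log2 change of -1.304 (limma adjusted p = 0.0642). It passed the filter only through its NC libraries, and its groups did not overlap. AABR07044148.1 had 2.30, 1.37, 0.398 and 1.96 FPKM in NC and 0.293, 0.643, 0 and 0.431 at 0 h p.r., with overlap through NC replicate 3, a log2 change of -1.20 (limma adjusted p = 0.107). AABR07004868.2 was the only one of the 11 members with an adjusted p under 0.05 that shared the fast-muscle order within 0 h p.r. It did not share it within NC, where it was lowest in replicate 2.

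**Figure D5:**
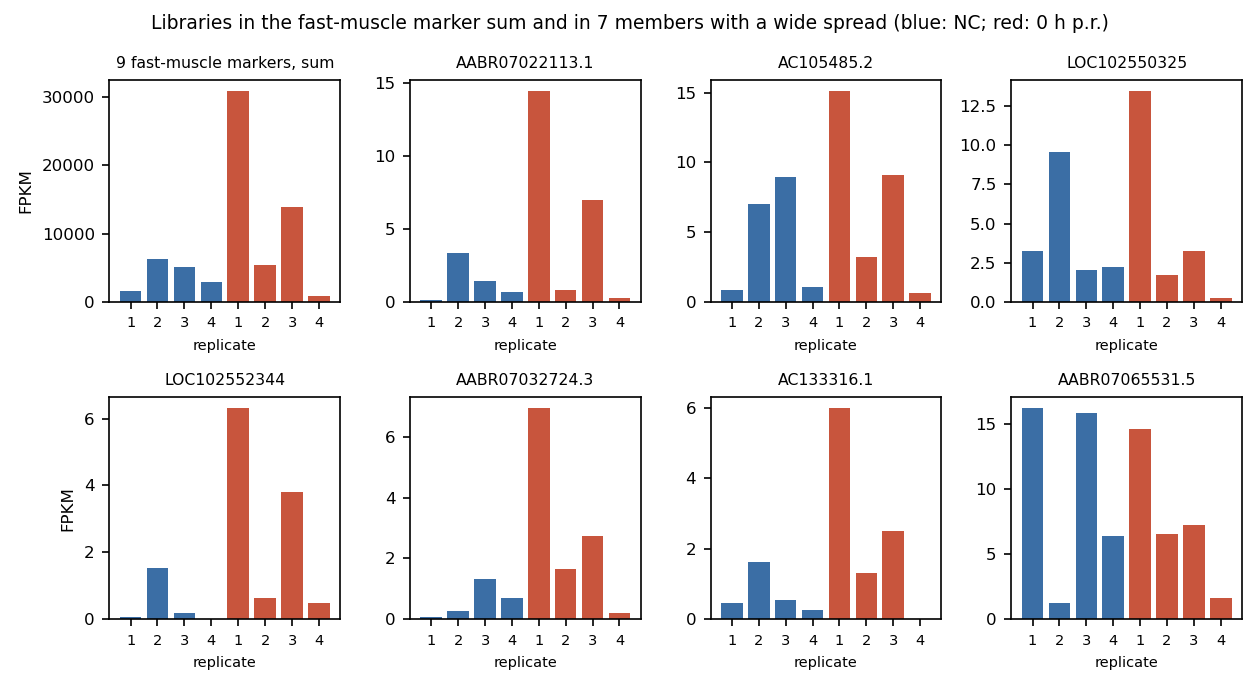
FPKM per library of the summed fast-muscle markers and of the 7 wide-spread members that share its order within 0 h p.r.; bars are single libraries, blue for NC and red for 0 h p.r., with the replicate number below. In all 8 panels 0 h p.r. replicate 1 is the highest and replicate 4 the lowest of the 0 h p.r. libraries, and only AABR07022113.1 also follows the order of the NC bars.

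At the filter, the members just inside had 0.504 to 0.515 as the FPKM that decided it (rank 4 from the top). They were AABR07070518.1, LOC102546683 and AABR07030499.1, and AABR07060133.1, AABR07051376.2 and AC119762.7 lay just outside, with 0.497 to 0.499 at that rank. The 122 rows outside had a median of the mean FPKM of 0.280. When all rows were fitted, 1 of the 122 passed the adjusted p (AABR07030366.1, 0.0461) and 0 passed both thresholds, while 17 had an unadjusted p under 0.05. AABR07030366.1 had 0.370, 0.121, 0.488 and 0.321 FPKM in NC and between 0 and 0.0331 at 0 h p.r.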

How the data were processed

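Polyadenylated RNA of 4 NC and 4 0 h p.r. tendons was sequenced from stranded libraries. The authors aligned the reads with HISAT2 (2.1.0) to Rnor_6.0, counted them per gene with featureCounts (1.6.3) and normalized them with DESeq2 (1.30.1), and the deposited values were FPKM, 1 column per library. The strand setting of the counting is not given in the sources used here. The 3 columns of the authors' own comparison hold fold changes and p-values and were not used.

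The 13863 genes of all types that reached 0.5 FPKM in 4 or more libraries were compared in limma 3.58.1 (R 4.3.3; lmFit, eBayes with trend) on log2(FPKM + 0.5), two-sided, without covariates. Fold changes on this scale understate the change of low genes. A call needed both a fold of at least 2 and an adjusted p under 0.05. Tables were made in Python 3.11.15 with pandas 2.3.3. Whole reads were recovered from the steps between a gene's FPKM values for 100% of 15590 genes (tolerance 0.002 of a read), with gene lengths set on a scale shared by 19 of 20 miRNA hairpins of RefSeq. These gave the depth of 11353941 to 17903265 reads per library, the read numbers and the floor of 3 reads, which covers counting error only. The fit was tested on simulated data.

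Genes named were all members with an adjusted p under 0.05, the 10 highest, those on the lists, 3 on either side of the filter and the 5 largest other changes. Members beside called genes, those with the widest spread and a few others named for a comparison, such as Arid5b, AC134224.1 and AC099449.1, were added after their values were seen. The members and lists were chosen with earlier results of these data known. RefSeq (GRCr8) served for names, gene order and the scale of the gene lengths, and no coordinates are given. Its promoter table held 26 of the 247 members but none of the 8 past both thresholds, and no sequence is shown. Alternatives were other pseudocounts (0.1 and 1), other filters, scalings and weights, the replicate number as a block, voom on the recovered reads, a test against a fold of 1.5 (treat) and leaving out each library in turn.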

Additional observations from a re-analysis of the deposited data

Results flagged for a closer look

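In 96 groups of 4 libraries examined, 4 had a library far from the other 3 by the gap divided by the range of the group, where chance gives about 1 in 20. AABR07055844.1, an antisense gene beside Cfd, had 37.3 FPKM in NC replicate 4 and 51.1 to 53.1 in the others, a gap of 0.893 of the range. Ly6l had 1.49 FPKM in NC replicate 2 and 0.230 to 0.330 in the others (0.872), and 0.191 in 0 h p.r. replicate 3 against 0.615 to 0.724 in the others (0.836). AABR07016572.1, beside Slc1a4, had 1.64 FPKM in 0 h p.r. replicate 3 and 2.90 to 3.24 in the others (0.832). None of these genes passed the test.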

How the results depend on the processing

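The count of 8 members past both thresholds stayed within 1.5 times of itself with a pseudocount of 0.1, without a filter, with quantile scaling and with a robust prior. Of the 8, 6 were shared with a pseudocount of 0.1, 7 without a filter, 6 with quantile scaling and 7 with a robust prior. Median-ratio scaling also gave 8, but its factors of 0.998 to 1.016 changed the values little. It was therefore a weak test, here and for the overlap of groups below. The same count was 5 with a pseudocount of 1, 2 with a mean FPKM of at least 2 (124 members), 14 with array weights and 0 with treat against a fold of 1.5, where the adjusted p of AABR07004868.2 was 0.135. At any fold, 11 members passed the adjusted p, against 3 with a mean FPKM of at least 2 and 30 with array weights. In voom on the recovered reads, with library sizes from the listed genes, 3 members passed both thresholds and 4 the adjusted p, and the median log2 change of the members was -0.11, beside -0.09 over all genes, so relative to all genes the members stayed near 0. With library sizes taken from the FPKM scale, an alternative chosen after seeing the data, voom gave 7 and 8. The median log2 change of the members, -0.01, was 0.025 with a mean FPKM of at least 2 and 0.038 with quantile scaling, where all genes had -0.03. Leaving out each library in turn gave 2 to 12 members past both thresholds and 2 to 19 past the adjusted p, with a median of -0.03 to -0.00. The lowest counts came without 0 h p.r. replicate 3 (2), NC replicate 1 (3) and 0 h p.r. replicate 2 (3), then NC replicate 4 (5) and 0 h p.r. replicate 1 (5), and the highest without 0 h p.r. replicate 4 (12). All calls left were higher at 0 h p.r. without NC replicate 1, 0 h p.r. replicate 2 or 0 h p.r. replicate 3. All 2 calls left without 0 h p.r. replicate 3 were among the 8, and 6 of the 12 were. With the replicate number as a block, 5 members passed both thresholds and 5 the adjusted p, of which 4 were among the 8. Same-numbered libraries did not deviate together (correlations of -0.14, -0.07, 0.07 and 0.01). A small shared effect could go unseen in such correlations, and the labels do not say whether the samples were paired. Groups did not overlap in 35 members with median-ratio scaling, against 36. Depth is a limit for the 56 of 247 members with a median under 10 reads per library.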
